A study of Mus musculus with 6 samples.

Results

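The 10 genes described here encode brakes on mitogen-activated protein kinase (MAPK) signalling: the MAPK phosphatases Dusp1, Dusp2, Dusp4, Dusp5, Dusp6, Dusp7, Dusp10 and Dusp16, and the Ras pathway inhibitors Spry2 and Spred1. They were taken as a list of names, and each was read at the probe sets that the platform annotation lists with that gene alone. This gave 11 probe sets for 10 of the 22180 genes that had a probe set of their own, and Dusp6 had the extra one. RNA came from RAW 264.7, an established mouse macrophage-like cell line, and was measured on 6 arrays. In the 3 Mist-targeted samples the cells had received 50 nM of a GapmeR against Mist, a long noncoding RNA, and in the 3 Control samples 50 nM of a non-targeting GapmeR. A GapmeR is an antisense oligonucleotide with locked nucleic acid ends that lets RNase H cut its target RNA. Both groups were transfected with a lipid reagent and collected after 48 h, and the labels name 1 GapmeR against Mist. Whether replicates came from separate cultures is not stated in the labels. The p values therefore reflect only the spread of these arrays, and that spread may be technical.

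MAPK cascades pass signals from receptors through Ras, a kinase of the MAP3K tier and a kinase of the MAP2K tier to ERK, JNK or p38. MAPK phosphatases remove phosphate from both the threonine and the tyrosine that activate these kinases, and many of them are transcribed in response to the pathway that they shut off. Sprouty and Spred proteins act further up, at Ras and Raf. In macrophages these brakes shape how long ERK, JNK and p38 stay active after growth factor or Toll-like receptor signals, and Dusp1 is known for limiting cytokine output in mice.

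Dusp6 rose with the Mist-targeted GapmeR, by 1.71-fold, and it was the 1 gene of the 10 that passed the test (limma, Benjamini-Hochberg over all 41345 probe sets, adjusted p under 0.05). Over all 22180 genes, 0.415% passed, and 0.212% passed and were higher. Dusp4 was lower and Dusp7 higher on all 3 Mist-targeted arrays than on any Control array, but neither passed. Such a separation, in either direction, was found for 20.0% of all genes. The remaining 7 genes had differences between -0.06 and 0.17 on the log2 scale. The 10 differences had a median of 0.0095, against 0.0069 over all genes, with 5 above 0 and 5 below.

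For 9 of the 10 genes a RefSeq promoter was at hand (GRCm38.p6), and the 250 bases before the start are shown for 3 of them. Dusp6 is shown as the gene that rose, and Dusp1 and Dusp5 as phosphatase genes whose windows hold the response elements of immediate early genes. Capitals mark the cyclic AMP response element TGACGTCA and its core TGACG, the ETS motif GGAAGT, the ACGTG core of hypoxia response elements, and the CArG box, the site of serum response factor. AP-1 sites (TGANTCA) were searched too. All were searched on both strands. TGACG lies within TGACGTCA, and matches of 1 motif may overlap those of another.
Dusp6, chr10:99262981-99263230, plus strand: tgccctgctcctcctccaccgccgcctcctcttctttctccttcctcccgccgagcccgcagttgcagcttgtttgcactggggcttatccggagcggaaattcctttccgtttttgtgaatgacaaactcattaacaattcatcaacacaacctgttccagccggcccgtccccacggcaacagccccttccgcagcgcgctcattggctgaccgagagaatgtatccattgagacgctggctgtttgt
Dusp1, chr17:26508473-26508722, minus strand: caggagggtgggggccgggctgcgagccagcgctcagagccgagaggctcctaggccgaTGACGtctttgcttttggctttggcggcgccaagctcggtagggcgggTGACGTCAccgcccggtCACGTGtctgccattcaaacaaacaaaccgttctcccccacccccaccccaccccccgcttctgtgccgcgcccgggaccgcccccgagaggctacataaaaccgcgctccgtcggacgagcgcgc
Dusp5, chr19:53528895-53529144, plus strand: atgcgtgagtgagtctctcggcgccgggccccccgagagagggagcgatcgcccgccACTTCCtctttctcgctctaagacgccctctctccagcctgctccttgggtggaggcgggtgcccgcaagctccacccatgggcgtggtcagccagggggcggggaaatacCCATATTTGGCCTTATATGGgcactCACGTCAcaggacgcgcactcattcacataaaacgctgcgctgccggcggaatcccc

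The Dusp6 window held none of these motifs, which says only that the letters are not in these 250 bases. The Dusp1 window held a full TGACGTCA that begins 143 bases before the start, a separate TGACG that begins 191 bases before it, and ACGTG on both strands within CACGTG. The Dusp5 window held 2 CArG boxes next to each other, beginning 82 and 72 bases before the start. It also had an ETS match and a stretch in which ACGTG and TGACG overlap on the minus strand. Among all 32841 windows of this length, 1.55% held TGACGTCA, 17.8% TGACG, 1.47% a CArG box, 19.7% GGAAGT, 16.6% ACGTG and 6.75% TGANTCA. Of the 9 genes with a window, these motifs were found in 1, 3, 1, 1, 4 and 0. A match is a description of the sequence, and no binding was measured.

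Dusp6 and Dusp7 are the cytoplasmic phosphatases that act chiefly on ERK. Dusp6 had log2 values of 7.30, 7.32 and 7.40 on the Mist-targeted arrays, against 6.48, 6.54 and 6.68 on the Control arrays. The groups were separated by a gap wider than the spread within either of them. The means were 7.34 ± 0.054 in Mist-targeted and 6.57 ± 0.10 in Control samples (SD, n = 3 each), a log2 difference of 0.77 ± 0.090 (SE, adjusted p = 0.031, 95% interval 0.56 to 0.98). In RNA from whole cultures, a change in some of the cells and a smaller change in all of them cannot be told apart. The adjusted p was 0.12 with the replicate number as a block. It lay between 0.091 and 0.17 when any 1 of the 6 arrays, Control or Mist-targeted, was left out, with differences of 0.73 to 0.83, so the call rests on all 6 arrays while the difference kept its size. Over all genes, 1 to 34 passed in these 6 fits and 0 with the block, against 92 with all 6 arrays and no block. A further fit used listed probe sets only, meaning the 23521 listed with 1 gene. There 3.05% of genes passed and 1.18% passed and were higher, and the adjusted p of Dusp6 was 0.00084 (limma).

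The other Dusp6 probe set did not show the difference. Its log2 values were 3.94, 3.95 and 4.15 on the Mist-targeted arrays, against 3.95, 3.92 and 3.995 on the Control arrays, and the groups overlapped (difference 0.060 ± 0.092, adjusted p = 0.91). These values lie below the median of every array, which was between 4.468 and 4.497, and the arrays' background was not measured here. Which part of the transcript each of the probe sets covers was not analysed here. With the mean of both probe sets the difference was 0.42 (adjusted p = 0.15).

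Dusp7 had log2 values of 6.89, 7.03 and 7.23 on the Mist-targeted arrays, against 6.80, 6.86 and 6.77 on the Control arrays. All 3 Mist-targeted arrays were above the Control arrays, and replicate 1 was above the highest of them by a narrow margin. The difference was 0.24 ± 0.11 (SE, adjusted p = 0.53), and it was 0.15 without Mist-targeted replicate 3 and 0.32 without Mist-targeted replicate 1.

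**Figure D1:**
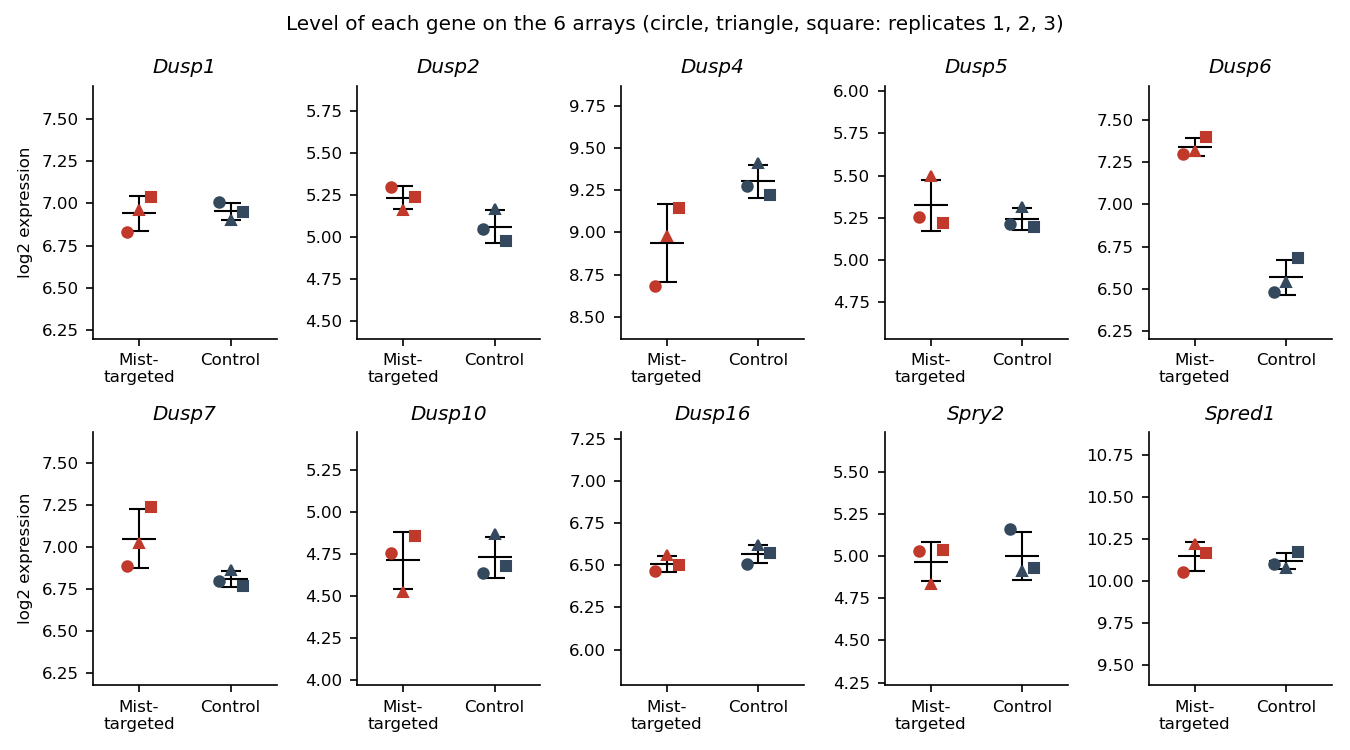
Log2 expression of each of the 10 genes (y axis, every panel spanning the same range of 1.5 log2 units) on the Mist-targeted arrays (red) and the Control arrays (dark), with replicates 1, 2 and 3 as circle, triangle and square and bars for mean ± SD (n = 3). Dusp6 lies between 7.30 and 7.40 on the Mist-targeted arrays and between 6.48 and 6.68 on the Control arrays. Dusp4 and Dusp7 are the other 2 genes whose groups do not overlap, as in 20.0% of all genes.

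Dusp1, Dusp2, Dusp4 and Dusp5 encode the nuclear phosphatases, which are known as products of inducible genes. Dusp4, which acts on ERK and JNK, had log2 values of 8.69, 8.98 and 9.14 on the Mist-targeted arrays, against 9.27, 9.41 and 9.22 on the Control arrays. Every Mist-targeted array was below the Control arrays, with replicate 1 the lowest and replicate 3 close to the lowest Control array. The means were 8.94 ± 0.23 in Mist-targeted and 9.30 ± 0.10 in Control samples (SD, n = 3 each), a difference of -0.37 ± 0.13 (SE, adjusted p = 0.40). The difference was -0.24 without Mist-targeted replicate 1 and -0.47 without Mist-targeted replicate 3.

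Dusp1, which prefers p38 and JNK, did not pass. Its log2 values were 6.83, 6.96 and 7.04 on the Mist-targeted arrays, against 7.01, 6.90 and 6.95 on the Control arrays. The Mist-targeted arrays lay on both sides of the Control arrays, and the difference was -0.011 ± 0.090 (adjusted p = 0.99, 95% interval -0.22 to 0.20). Dusp2, a phosphatase of activated immune cells, had log2 values of 5.30, 5.16 and 5.24 on the Mist-targeted arrays, against 5.04, 5.17 and 4.97 on the Control arrays. Here Mist-targeted replicate 2 lay just below Control replicate 2, and the difference was 0.17 ± 0.090 (adjusted p = 0.63). Dusp5, which is specific for ERK, had log2 values of 5.25, 5.50 and 5.22 on the Mist-targeted arrays, against 5.21, 5.31 and 5.20 on the Control arrays. Mist-targeted replicate 2 stood above all other arrays and the rest overlapped (difference 0.081 ± 0.10, adjusted p = 0.88).

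Dusp10 and Dusp16 encode phosphatases that act on JNK and p38. Dusp16 had log2 values of 6.47, 6.56 and 6.50 on the Mist-targeted arrays, against 6.51, 6.62 and 6.58 on the Control arrays. The groups overlapped, with a difference of -0.057 ± 0.081 (adjusted p = 0.90) and the narrowest interval of the 10 genes, -0.25 to 0.13. Dusp10 had log2 values of 4.76, 4.52 and 4.86 on the Mist-targeted arrays, against 4.64, 4.87 and 4.68 on the Control arrays. These values are slightly above the array medians, the groups overlapped, and the difference was -0.017 ± 0.12 (adjusted p = 0.99).

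Spry2, which is induced by receptor tyrosine kinase signalling and limits it, had log2 values of 5.03, 4.84 and 5.04 on the Mist-targeted arrays, against 5.16, 4.91 and 4.93 on the Control arrays. The groups overlapped (difference -0.033 ± 0.11, adjusted p = 0.97). Spred1, which brings the Ras inactivator neurofibromin to the membrane, had log2 values of 10.05, 10.22 and 10.16 on the Mist-targeted arrays, against 10.10, 10.08 and 10.17 on the Control arrays. All 6 arrays lay close together, with a difference of 0.030 ± 0.086 (adjusted p = 0.96, 95% interval -0.17 to 0.23). For both genes a change as large as that of Dusp6 lies outside the interval, which for Spry2 was -0.28 to 0.22.

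**Figure D2:**
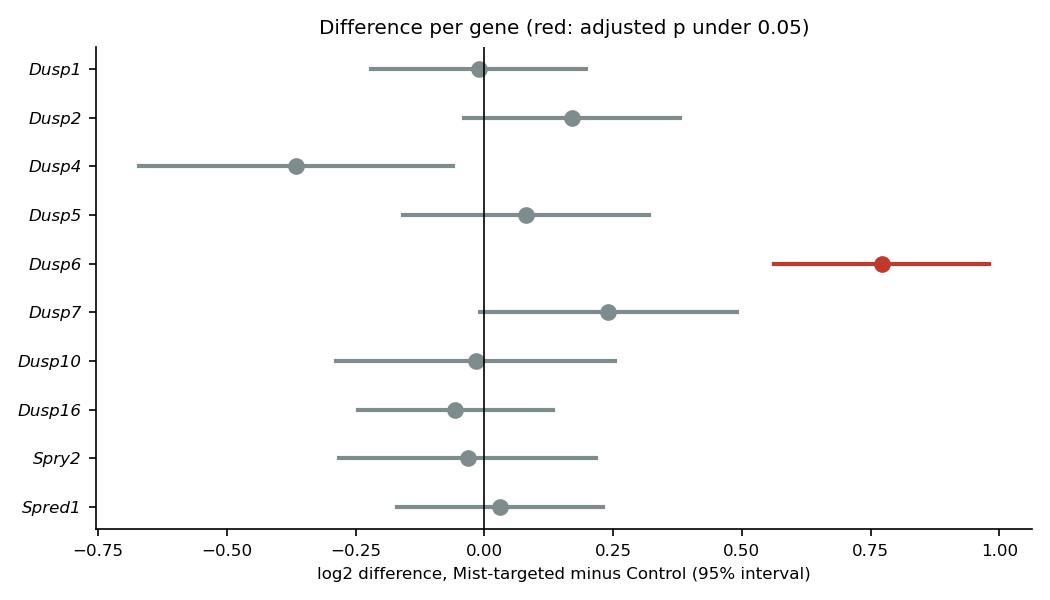
Log2 difference, Mist-targeted minus Control (x axis), for each of the 10 genes, as point and 95% interval from limma with 3 arrays per group. The Dusp6 interval runs from 0.56 to 0.98, the Dusp4 interval from -0.67 to -0.06, and the other 8 intervals include 0.

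Counted over the 10 genes, 2 were higher without overlap between the groups, against 9.99% of all genes, and 1 was lower, against 9.97%; in either direction it was 3 of 10, against 20.0%. At an unadjusted p under 0.05 there were 2 genes, Dusp6 and Dusp4, against 11.0% of all genes. With 10 genes, these counts are near those of the whole array. The size of the Dusp6 difference was larger than that of 99.4% of all genes.

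The Mist-targeted arrays did not shift these genes together. Against the Control means, 6, 6 and 7 of the 10 genes were higher on Mist-targeted replicates 1, 2 and 3, with medians of 0.019, 0.053 and 0.066. The medians of the Control arrays against the same means were -0.022, 0.051 and -0.042. Dusp6 stood at 0.73, 0.75 and 0.83 on the 3 Mist-targeted arrays, so that no array carried its difference alone. Dusp4 stood at -0.62, -0.32 and -0.16, and Dusp7 at 0.080, 0.22 and 0.43, with replicate 1 the lowest of the 3 for both.

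**Figure D3:**
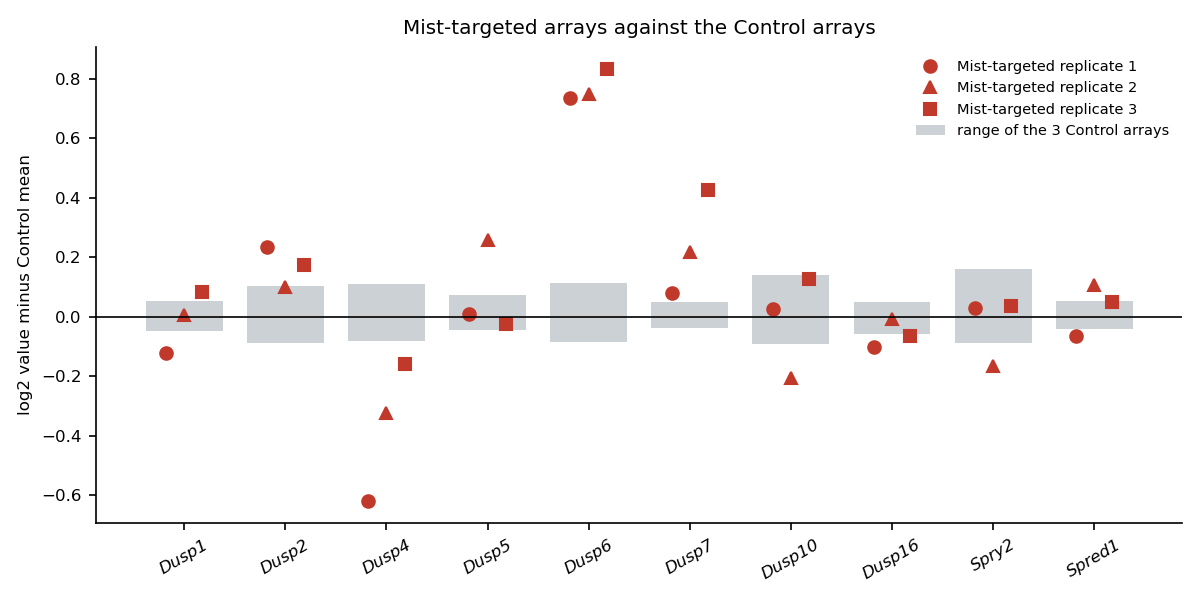
Log2 value of each gene on each Mist-targeted array minus the mean of the Control arrays (y axis), with the range of the 3 Control arrays as a grey band. The Dusp6 points lie between 0.73 and 0.83, those of Dusp4 spread from -0.62 to -0.16, and most other points lie in or near the grey bands.

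Among the other listed Dusp, Sprouty and Spred genes, no gene passed the test. Of 12 other Dusp genes 0 rose and 0 fell (limma, 2 at an unadjusted p under 0.05, against 11.0% of all genes), and their median difference was -0.0084. Dusp12 had a difference of 0.29 ± 0.096 (adjusted p = 0.37) and Dusp3, a small phosphatase that acts on ERK and JNK, one of -0.21 ± 0.086 (adjusted p = 0.48). Of 5 other Sprouty and Spred genes 0 rose and 0 fell (limma, 1 at an unadjusted p under 0.05, against 11.0% of all genes). All 5 had negative differences with a median of -0.064, as had 10601 of all 22180 genes. Spry1, Spry3 and Spry4 lay below the array medians on every array, and the Spred3 difference was -0.011. Spred2, the paralogue of Spred1, averaged 7.49 ± 0.13 in Mist-targeted and 7.75 ± 0.041 in Control samples (SD, n = 3 each), a difference of -0.26 ± 0.095 (adjusted p = 0.41), and Spry4 had a difference of -0.090 ± 0.096 (adjusted p = 0.85).

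Upstream of the MAPKs, the adaptor gene Gab2 fell. Gab2 encodes a docking protein that couples growth factor and cytokine receptors to the Ras activating machinery. Its log2 values were 7.90, 8.23 and 8.20 on the Mist-targeted arrays, against 8.92, 9.10 and 8.94 on the Control arrays, so that the groups were far apart. The difference was -0.88 ± 0.12 (SE, n = 3 per group, adjusted p = 0.043), or 1.84-fold lower in Mist-targeted samples. The adjusted p was 0.12 with the replicate number as a block and lay between 0.091 and 0.19 with any 1 array left out. It was 0.18 without moderation (ordinary linear model), and Gab2 did not pass with a minimum change of 1.5-fold either. Of the 16 alternatives, 7 kept the call. Of the 14 measured genes of Ras and its regulators Gab2 was the 1 that fell, 0 rose and 13 did not pass, with a median of -0.032. At an unadjusted p under 0.05 there were 6 of the 14 (2 higher and 4 lower), against 11.0% of all genes. Without overlap between the groups, 6 were lower and 2 higher, against 9.97% and 9.99% of all genes.

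Of 13 MAP3 kinase genes 0 rose and 0 fell (limma; 5 at an unadjusted p under 0.05, of which 2 were higher and 3 lower, against 11.0% of all genes), with a median of -0.019. Map3k1, which feeds JNK and ERK, had log2 values of 7.74, 7.97 and 7.98 on the Mist-targeted arrays, against 8.46, 8.54 and 8.37 on the Control arrays. The groups did not overlap (difference -0.56 ± 0.10, adjusted p = 0.094). It passed with trend and robust variance (adjusted p = 0.045) and among listed probe sets only (0.0088). Braf, the Raf kinase gene above ERK, had a difference of -0.37 ± 0.083 (adjusted p = 0.16). Of 6 MAP kinase kinase genes 0 rose and 0 fell (limma, 2 at an unadjusted p under 0.05, against 11.0% of all genes), with a median of -0.038. Map2k5, the activator of ERK5, had a difference of -0.34 ± 0.082 (adjusted p = 0.18) and Map2k3, an activator of p38, one of 0.41 ± 0.11 (adjusted p = 0.22). Of 11 MAP kinase genes 0 rose and 0 fell (limma, 1 at an unadjusted p under 0.05, against 11.0% of all genes), with a median of -0.057. The p38 alpha gene Mapk14 had a difference of 0.23 ± 0.097 (adjusted p = 0.51) and the JNK family gene Mapk10 one of -0.20 ± 0.11 (adjusted p = 0.67). Mapk10 averaged 4.12 in Mist-targeted and 4.32 in Control samples, below the array medians.

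Transcripts that respond to ERK lay on both sides of 0. Of 17 measured genes 0 rose and 0 fell (limma; 6 at an unadjusted p under 0.05, of which 2 were higher and 4 lower, against 11.0% of all genes), with a median of 0.017. Fos, a component of AP-1, had log2 values of 7.16, 7.13 and 7.38 on the Mist-targeted arrays, against 6.50, 6.63 and 6.49 on the Control arrays. The Mist-targeted arrays were all above the Control arrays (difference 0.68 ± 0.10, adjusted p = 0.056). The adjusted p was under 0.05 in 4 of 16 alternatives: trend and robust variance (0.033), without the dimmest 40% of probe sets (0.047), quantile normalization (0.047) and listed probe sets only (0.0026). Egr2, a zinc finger transcription factor gene, had log2 values of 5.21, 5.36 and 5.10 on the Mist-targeted arrays, against 5.99, 5.78 and 5.93 on the Control arrays. Here the Mist-targeted arrays were all below (difference -0.68 ± 0.10, adjusted p = 0.061). Ier3, Egr1 and Plaur were named after their values were seen. Their differences were -0.98 ± 0.22, -0.54 ± 0.12 and 0.45 ± 0.13 (limma, adjusted p = 0.17, 0.16 and 0.27). Ier3 spread widely on the Mist-targeted arrays, with log2 values of 7.88, 8.88 and 8.47.

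Of 10 kinases that MAPKs activate and mRNA decay factors, 0 rose and 0 fell (limma, 2 at an unadjusted p under 0.05, against 11.0% of all genes), with a median of 0.010. Zfp36, which encodes the decay factor tristetraprolin, had a difference of 0.34 ± 0.12 (adjusted p = 0.39), and Mapkapk2, a kinase activated by p38 that acts on that factor, one of -0.20 ± 0.081 (adjusted p = 0.47).

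**Figure D4:**
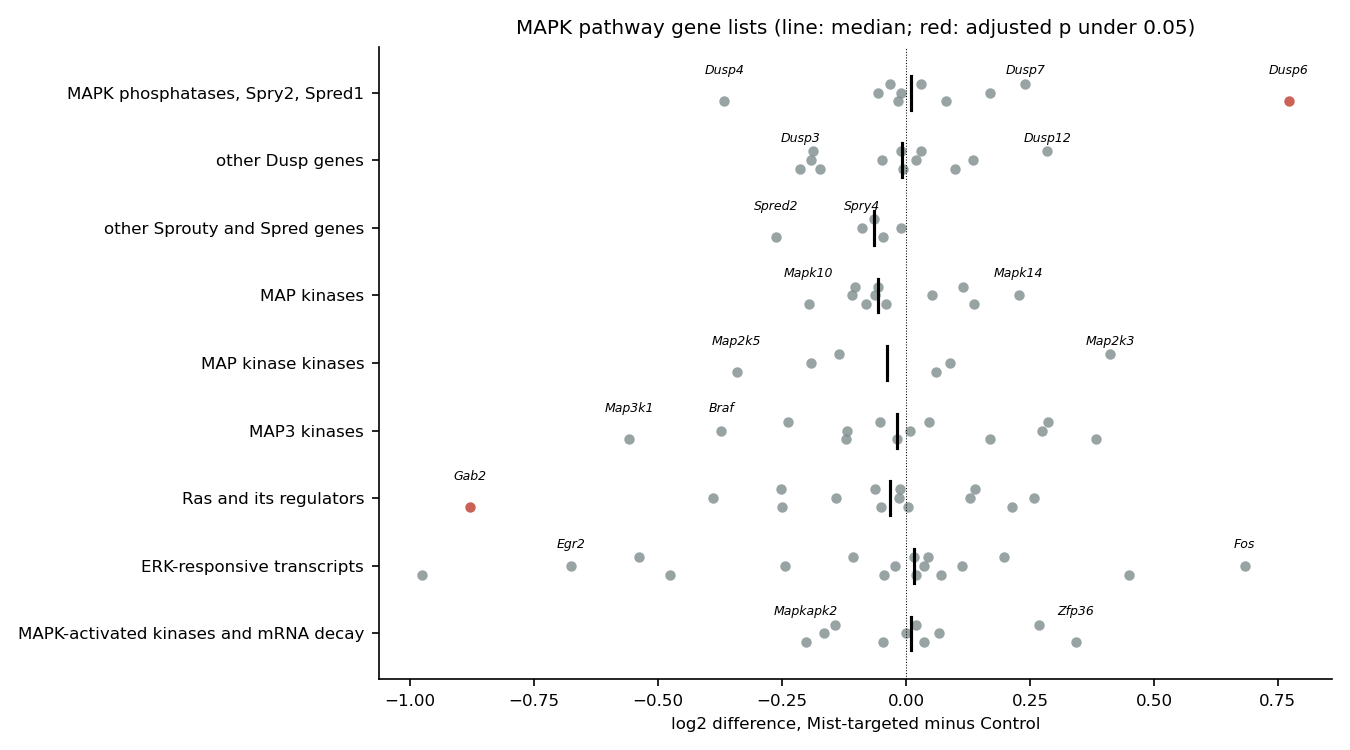
Log2 difference, Mist-targeted minus Control (x axis), of each measured gene of 9 MAPK pathway lists, with the median of each list as a black line and genes at an adjusted p under 0.05 in red (limma, 3 arrays per group). Dusp6 at 0.77 and Gab2 at -0.88 are the red points, and the medians of the lists lie between -0.064 and 0.017.

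**Figure D5:**
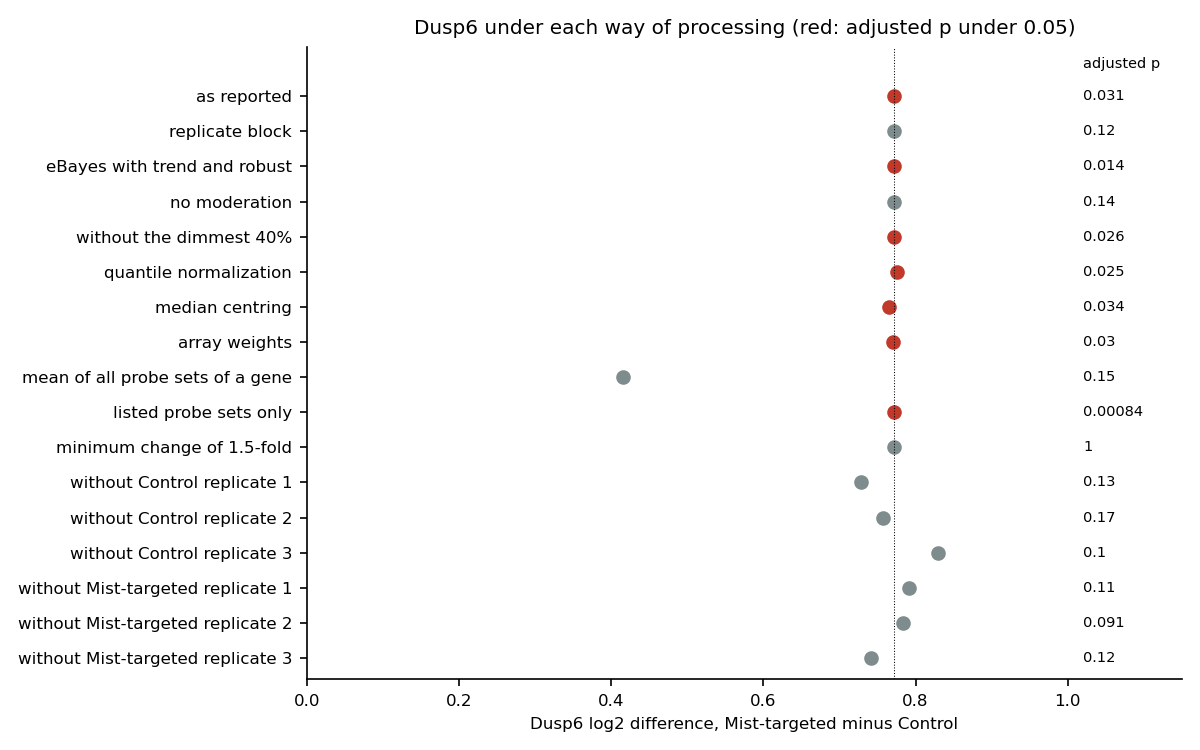
Dusp6 log2 difference, Mist-targeted minus Control (x axis), as reported and under 16 other ways of processing, with the adjusted p of each at the right and red points for those under 0.05. The difference lies between 0.73 and 0.83 except with the mean of both probe sets, where it is 0.42, and 6 of the 16 alternatives keep the call.

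The labelled cell type was checked with markers. On the log2 scale, the mean over 10 macrophage genes was 9.84 to 9.91 on the Mist-targeted arrays, against 9.77 to 9.82 on the Control arrays. Their differences had a median of -0.023, with 5 above 0 and 5 below, and the largest was that of Fcgr1. For T and NK cell (5 genes), B cell (3), fibroblast (4) and epithelial and endothelial markers (5), the mean lay below the array median on every array, between 3.80 and 4.46. Some single markers differed less. The macrophage gene Mertk averaged 4.73 in Mist-targeted and 4.71 in Control samples. The fibroblast gene Col1a1 averaged 4.61 and 4.63, above the array medians on every array. Among the macrophage genes Fcgr1, an IgG receptor gene, rose by 1.01 (limma, adjusted p = 0.012), and 9 did not pass. At an unadjusted p under 0.05 there were 4 of the 10, against 11.0% of all genes. Fcgr1 and Adgre1 (0.23) were higher, and Cd14 (-0.28) and Ptprc (-0.27) were lower. On the lists of the other cell types 0 genes passed (limma, 0 at an unadjusted p under 0.05). Mist is not named in the annotation, and its level was not analysed here.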

How the data were processed

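Expression was measured on 6 arrays, 3 Mist-targeted and 3 Control. The deposited values are log2 expression for 41345 probe sets, and RMA and Partek are named, without versions or roles, per the submitters' processing notes. RMA draws arrays to a shared distribution, which would reduce a change common to most transcripts. They entered the fit unchanged, and every array column was used. Replicates correlated at 0.988 to 0.991 within groups, and no columns were identical.

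Genes were named from the platform annotation: 1 gene symbol stood beside 23521 probe sets and several beside 1814, and the annotation lacked 16010. A gene was read at its single-gene probe set with the highest mean over all arrays. All 10 gene IDs of the MAPK phosphatases, Spry2 and Spred1 matched RefSeq (GRCm38.p6).

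Differences are Mist-targeted minus Control from limma's lmFit and eBayes (version 3.58.1, R 4.3.3; two-sided; prior degrees of freedom 3.48), with Benjamini-Hochberg adjustment over all 41345 probe sets and a threshold of 0.05. The fit was tested on simulated data with independent noise at each probe set. No effect shared by an array or a replicate number was simulated, so that test cannot speak to such effects. The number of arrays limits the precision: the median SE was 0.11. Named pathway genes are, per list, up to 4 that passed by size or, where none passed, the 2 with the smallest p. The 10 genes, the lists and the tests were chosen with earlier results of these data known. Alternatives were median centring or quantile normalization, array weights, a replicate block, trend and robust variance, and no moderation. Others were a filter on the dimmest 40%, the mean of a gene's probe sets, listed probe sets only, a minimum change of 1.5-fold, and leaving out each array. Listed probe sets here are the 23521 with 1 gene symbol, without those listed with several. Tables and plots used Python 3.11.15, pandas 2.3.3 and matplotlib 3.10.9.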

Additional observations from a re-analysis of the deposited data

How the results depend on the processing

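Of the 10 genes, Dusp6 passed as reported and under 6 alternatives, with adjusted p values of 0.00084 to 0.034. The number that passed was 0 with the replicate block (adjusted p = 0.12 for Dusp6), 0 without moderation (0.14), 0 with a gene's probe sets averaged (0.15) and 0 with a minimum change of 1.5-fold (1), by limma or, without moderation, an ordinary linear model. It was 0 in each of the 6 fits without 1 array. In these 10 fits 1 or 2 of the 10 genes had an unadjusted p under 0.05, against 2 as reported. The share of all genes under that threshold was 11.0% as reported and was not computed for these fits. Over all 22180 genes, 0 passed without moderation, 0 with the 1.5-fold minimum and 84 with probe sets averaged, against 92 as reported. Without Control replicates 1, 2 and 3, the genes that passed numbered 9, 1 and 13. Without Mist-targeted replicates 1, 2 and 3, they numbered 14, 34 and 3. The mean of probe sets includes the dim Dusp6 probe set, and the fits without an array hold fewer samples. The cause of the lost calls was not tested. The median difference of the 10 genes, 0.0095 as reported, lay between -0.016 and 0.061 without single arrays, where it was 0.061 without Mist-targeted replicate 1, 0.036 without Control replicate 1 and -0.016 without Mist-targeted replicate 3. Differences near 0 changed sign: Dusp1 was 0.0049 with array weights and lay between -0.058 and 0.045 without single arrays, and in the same fits Dusp5 lay between -0.0071 and 0.13, Dusp10 between -0.089 and 0.077, Spry2 between -0.077 and 0.048 and Spred1 between -0.0076 and 0.077. Dusp2, Dusp4, Dusp6, Dusp7 and Dusp16 kept their sign under all 16 alternatives. With listed probe sets only, 677 genes passed, or 3.05%, against 92 as reported; among the 10 genes and the MAPK pathway lists, Gab2, Map3k1, Braf, Rasgrp3, Egr1, Egr2 and Ier3 then fell and Fos and Dusp6 rose (adjusted p 0.00084 to 0.045). With the replicate block 0 genes passed. Whether the replicate numbers pair the samples is not settled: deviations from the group means correlated at 0.20, 0.096 and 0.033 between arrays of the same number, and not every pair was over 0.1. As a hint from the data, all 3 Mist-targeted arrays correlated best with the Control array of their own number, as did Control replicates 1 and 2 with theirs, while Control replicate 3 correlated best with Mist-targeted replicate 2 (0.060).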
